A study of Homo sapiens with 54 samples.

Results

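HEK293T cells, a human embryonic kidney line, were compared by RNA sequencing after they had received either WT RfxCas13d (WT) or its high-fidelity form N2V7, in both cases with crRNA-13. The 6 libraries were chosen by their labels alone, 3 of N2V7 with crRNA-13 (N2V7_S13) and 3 of WT with crRNA-13 (WT_S13), out of 54 libraries in the series. All 6 came from cells transiently transfected with 1 plasmid, on which a CAG promoter drove the effector and a U6 promoter drove the crRNA, and harvest was at 48 h by the labels, though the study's account of its results names a later hour. N2V7 differs from WT by mutations in the HEPN1 domain, and crRNA-13 addresses exon 1a of C9ORF72. For reference, the same effectors with a non-targeting crRNA (N2V7_NTG and WT_NTG, 3 libraries each) and with the additional crRNAs S3, S4 and S7 (18 libraries) were read in the same way. The table has no value for the effectors themselves, so how much of either protein a culture made is not known here.

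RfxCas13d is an RNA-guided nuclease that cuts RNA with a pair of HEPN domains. Once it has bound its target it can also cut bystander RNAs in trans, and N2V7 was engineered to lessen that activity. The comparison therefore addresses how the RNA of the cell differs between both forms of the enzyme when the guide, the target and the cells are held the same.

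The 6 libraries held between 10674350 and 13951684 estimated counts. Levels are given as CPM, each gene's count relative to its library's total after TMM scaling, and differences as log2 of N2V7 over WT ± SE with n = 3 libraries per group. A gene was called when its fold change passed the study's own minimum (given with the processing) and its adjusted p in edgeR's quasi-likelihood test, with Benjamini-Hochberg adjustment, lay under 0.05. In bulk RNA, fewer cells that make an RNA and less of it in each cell cannot be told apart. Of 12 markers of the line, 11 exceeded 1 CPM, as did 1 of 10 markers of mature kidney and 7 of 24 markers of other lineages, with 4 of the kidney and 4 of the lineage markers at 0 in all 6 libraries.

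Between N2V7 and WT with crRNA-13, 1365 of 15378 genes were called (8.88%), and they leaned to one side. N2V7 libraries were lower for 981 of them (6.38%) and higher for 384 (2.5%), so that 71.9% of the called genes were lower. The median size of the change was 0.49 on the log2 scale among the lower genes and 0.41 among the higher ones, and 176 genes were more than 2-fold lower against 37 more than 2-fold higher. By the kind of gene, 815 of the lower genes were protein coding and 121 were long non-coding RNAs. Leaving out each of the 6 libraries in turn kept 627 of the 1365 calls every time, 487 of them lower and 140 higher. The plot of change against level shows both sides.

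**Figure D1:**
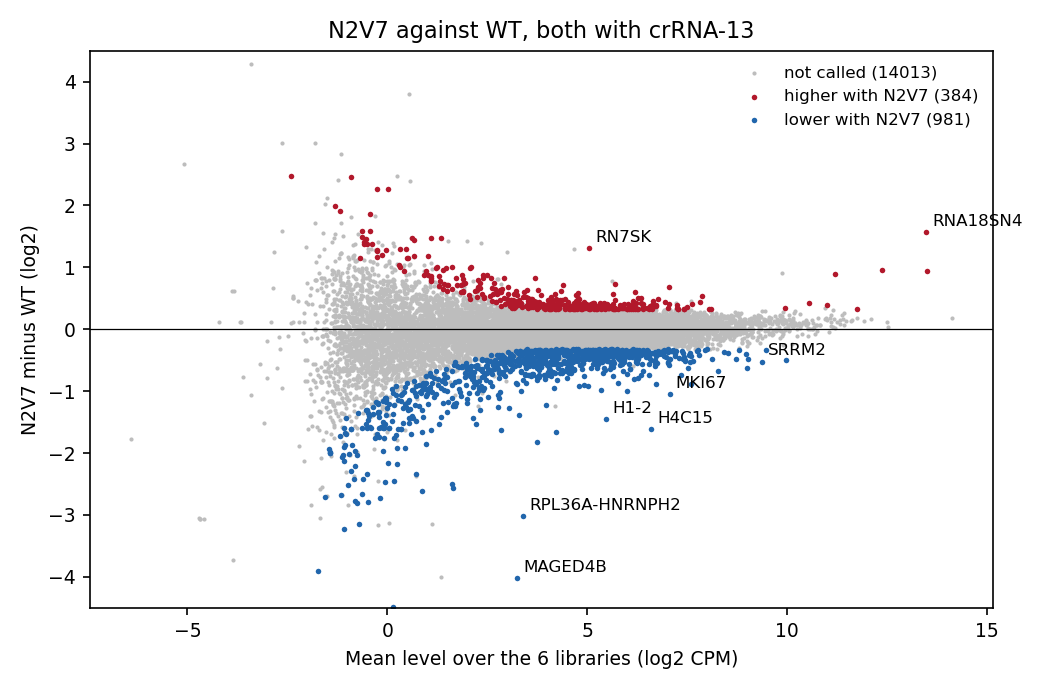
Log2 difference of N2V7 minus WT with crRNA-13 (vertical axis) against the mean level over the 6 libraries in log2 CPM (horizontal axis), 1 point per gene, with 981 called genes below the line at 0 (blue) and 384 above it (red). H4C15, H1-2 and MKI67 stand out among the lower genes of moderate level, RNA18SN4 and RN7SK among the higher, and 15 genes beyond 4.5 in size, 2 of them called, are not drawn.

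C9orf72 (Entrez 203228, chromosome 9, 27546546 to 27573866, GRCh38), the gene the crRNA addresses, encodes a subunit of a complex that acts in autophagy and membrane traffic. It measured 29.2, 28.7 and 31.6 CPM in the N2V7 libraries and 26.5, 25.9 and 26.7 CPM in the WT libraries. The values did not overlap, but the difference of 0.18 ± 0.09 (95% interval -0.00 to 0.36) was not called (edgeR adjusted p = 0.146). The count sums all transcript variants, so the variant that crRNA-13 addresses could not be read on its own. Of 39 tested genes of the C9orf72 complex and autophagy, 1 rose and 1 fell, where 2.5% and 6.38% of all tested genes did. ATG3, an enzyme of autophagosome lipidation, rose by 0.39 ± 0.06 (edgeR adjusted p = 3.02e-06), a call that was lost once each library's trend with transcript length was removed (log2 0.31). ULK1, the kinase that starts autophagy, was lower by the main test (log2 -0.36, edgeR adjusted p = 0.0256) but lost its call without any of 4 single libraries, replicates 1 and 2 of N2V7_S13 and 1 and 3 of WT_S13 (log2 between -0.36 and -0.33).

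Among the lower genes were replication-dependent histones. These genes encode the core and linker histones that package newly copied DNA, are transcribed mostly in S phase, and end their mRNAs in a conserved stem-loop in place of a poly(A) tail. The libraries were poly(A)-selected, so the values below need not give the full level of such mRNAs. How the measured part relates to the whole was not tested. The stem-loops of 4 of the called histones are printed here to show the mRNA end that these genes have in common, with the 4-base loop in capitals between 2 arms of 6 bases (GENCODE transcripts, GRCh38, written 5′ to 3′ on the strand of the mRNA).
H4C15, chr1:149860769-149860784, minus strand: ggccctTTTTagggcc
H2AC18, chr1:149842223-149842238, minus strand: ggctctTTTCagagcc
H1-2, chr6:26055744-26055759, minus strand: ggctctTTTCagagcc
H2BC12, chr6:27146366-27146381, minus strand: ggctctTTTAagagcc
The pattern GG, NN, CTTTT, N, AG, NN and CC in 1 run, where N is any base, was searched on the mRNA strand alone, and a match was found in a transcript of 28 of the 29 tested members of the list, and in 58 of 14451 tested genes with a GENCODE transcript (0.401%), 30 of them outside the list.

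Of 62 listed histone genes, 29 passed the low-count filter. Of these, 11 were lower with N2V7 and 1 higher, where 6.38% and 2.5% of all tested genes were. Their median difference was -0.52 against -0.00 over all tested genes. A scarce gene could pass that filter through a single group where it was high, so the count and the median are a description. The count of lower members ran between 9 and 12 when single libraries of the 6 were left out and between 8 and 14 under the other settings. H4C15, a histone H4 gene (Entrez 554313, chromosome 1, 149844488 to 149861240), stood at 43.7, 52.4 and 47.3 CPM with N2V7 and at 152, 153 and 133 CPM with WT. All N2V7 libraries lay far below all WT libraries, a 3.06-fold difference (log2 -1.61 ± 0.15, edgeR adjusted p = 1.08e-10).

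The H2A gene H2AC18 (Entrez 8337, at 149842218 to 149842750 on chromosome 1) measured 8.64, 9.07 and 9.34 CPM with N2V7 against 24.9, 33.0 and 27.8 CPM with WT (log2 -1.66 ± 0.14, edgeR adjusted p = 3.88e-14). The linker histone H1-2 (Entrez 3006, chromosome 6, 26055740 to 26056470) measured 23.3, 22.5 and 25.3 CPM against 65.4, 72.1 and 58.3 CPM (log2 -1.46 ± 0.14, edgeR adjusted p = 9.5e-11). H2BC21, an H2B gene, was 2.33-fold lower (edgeR adjusted p = 1.58e-11), and H3C6, an H3 gene, was 2.38-fold lower (edgeR adjusted p = 2.65e-06). The fall thus covered members of all 4 core histone classes and the linker class. Histone genes are near-identical to one another, H4C15 and H2AC18 have close copies, and how reads were divided among copies is uncertain.

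Other called members were scarce. H4C4 summed to 6.0 estimated counts over the N2V7 libraries against 48.3 over the WT libraries (edgeR adjusted p = 0.000917), and H2AC15 summed to 4.10 against 30.0 (edgeR adjusted p = 0.00297). H3C4 was called as well (log2 -2.51, edgeR adjusted p = 0.0108) but lost its call without replicate 3 of N2V7_S13 (log2 -2.23) or replicate 2 of WT_S13 (log2 -2.05). Among the 7 members with a mean of at least 4 CPM, 6 were lower and 0 were higher by edgeR. H1-4 was the exception in direction (log2 0.86, edgeR adjusted p = 0.038), at 2.33 to 3.24 CPM with N2V7 and 1.14 to 1.81 CPM with WT, and its call was lost without any of 4 single libraries, replicates 1 and 2 of N2V7_S13 and 1 and 3 of WT_S13 (log2 between 0.68 and 0.92). None of the listed factors of histone mRNA transcription and processing rose by edgeR, and 1 of 19 fell. That member was CASP8AP2, a factor of histone gene transcription (log2 -0.33, edgeR adjusted p = 5.01e-05), whose change dropped under the fold threshold without replicate 3 of N2V7_S13 (log2 -0.28) or of WT_S13 (log2 -0.29). Among the separately listed histone variants, H2AX, the H2A form phosphorylated at DNA breaks, was 1.27-fold lower (log2 -0.34 ± 0.08, edgeR adjusted p = 0.000306). The call of H2AX did not hold without replicate 1 of N2V7_S13 (log2 -0.32).

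Set beside the non-targeting crRNA, the WT_S13 libraries were the ones that stood apart in the histone mRNA measured in these poly(A)-selected libraries. The listed histones summed to between 371 and 419 CPM in WT_S13, between 188 and 194 CPM in N2V7_S13, between 131 and 152 CPM in WT_NTG and between 129 and 155 CPM in N2V7_NTG. With NTG, 1 of the 29 members was lower with N2V7 (5.24% of all tested genes were) and 2 were higher (5.55%). The difference between effectors itself differed between crRNA-13 and NTG for 6 of the 29, all toward lower values with crRNA-13, where 8.06% of all genes did so. H4C15 was 0.51 higher with N2V7 under NTG and 1.61 lower under crRNA-13, a gap of -2.12 ± 0.22 (edgeR adjusted p = 1.98e-08). With S3, S4 and S7 the sums were between 353 and 506 CPM in WT and between 153 and 229 CPM in N2V7, and 13 of the 29 members were lower and 2 higher with N2V7 on the mean of those crRNAs, where 5.43% of all tested genes were. H3C6 did not follow there, since it was higher with N2V7 by 0.60 on that mean (edgeR adjusted p = 0.0003) and 2.38-fold lower with crRNA-13.

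**Figure D2:**
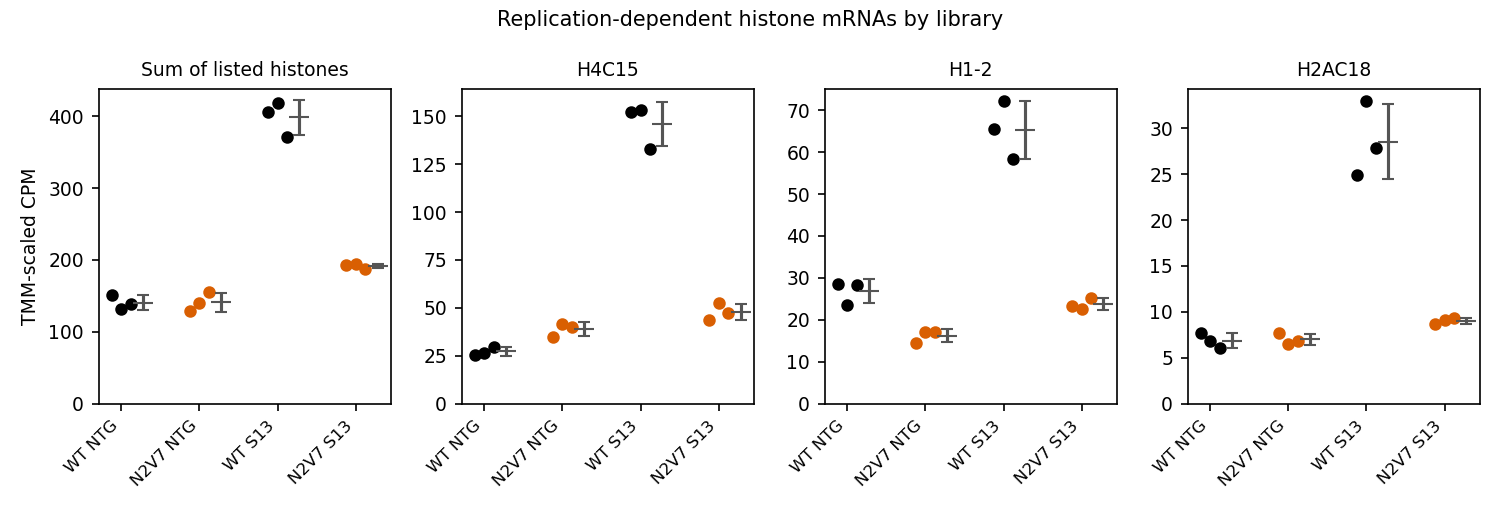
Summed level of the listed replication-dependent histones and levels of H4C15, H1-2 and H2AC18 in TMM-scaled CPM (vertical axes, from 0) in the WT and N2V7 groups with NTG and crRNA-13 (horizontal axes); points are libraries and bars are the mean and SD of 3. The 3 WT S13 libraries lie above all others in each panel, with sums of 371 to 419 CPM against 188 to 194 CPM in N2V7 S13.

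Among the largest rises were RNAs that lack poly(A) tails, in libraries that were made from mRNA. The 18S ribosomal RNA gene RNA18SN4 (Entrez 109864273) measured 16965, 16491 and 17693 CPM with N2V7 and 7003, 4511 and 5638 CPM with WT, a 2.98-fold rise (log2 1.57 ± 0.33, edgeR adjusted p = 0.000335). The 28S genes RNA28SN1 and RNA28SN4 rose by 0.95 and 0.94 (edgeR adjusted p = 0.00219 and 0.00182). RNA28SN2, another copy, was higher by 0.90 (edgeR adjusted p = 0.0296), and its call was lost without replicate 2 of N2V7_S13 (log2 0.79) and without replicate 2 or 3 of WT_S13 (log2 0.87 each). These genes are near-identical copies, so that their reads cannot be assigned to one of them. RN7SK, the small nuclear RNA that holds the elongation kinase P-TEFb inactive (Entrez 125050, chromosome 6, 52995620 to 52995951), measured 49.3, 47.9 and 44.5 CPM against 19.9, 17.7 and 19.5 CPM (log2 1.31 ± 0.33, edgeR adjusted p = 0.00229).

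The share of all counts in ribosomal RNA was between 4.17% and 4.42% in the N2V7_S13 libraries and between 1.79% and 2.30% in the WT_S13 libraries, while it was between 1.71% and 3.15% in WT_NTG and between 1.76% and 3.07% in N2V7_NTG. The part of this share in the other differences was not tested. Not every RNA of the kind rose. Of the 10 tested members of the list of structural RNAs, 3 were higher and 1 was lower, where 2.5% and 6.38% of all tested genes were. That list did not hold RNA18SN4, RNA28SN2, RNA28SN4 or RNVU1-18. Of 11 tested genes annotated as ribosomal RNA, 5 were higher and 0 lower. RN7SL1, the RNA of the signal recognition particle, measured 5.33, 5.44 and 6.76 CPM with N2V7 against 9.38, 39.0 and 14.9 CPM with WT (log2 -1.82, edgeR adjusted p = 0.0143). Replicate 2 of WT_S13 carried that result, and without it the difference was -1.04 and no longer called (edgeR adjusted p = 0.219). RNVU1-18, a variant U1 small nuclear RNA, was lower by 1.54 (edgeR adjusted p = 0.0149) and lost its call without replicate 1 of N2V7_S13 (log2 -1.31) or replicate 2 of WT_S13 (log2 -1.39). Among the structural RNAs, RNA45SN1, the ribosomal RNA precursor, rose by 0.69 (edgeR adjusted p = 0.0067) but not without replicate 3 of N2V7_S13 (log2 0.55).

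Protein-coding genes among the 12 largest rises were expressed at low levels. MAPK11, the stress kinase p38 beta, measured 6.14, 5.25 and 5.47 CPM with N2V7 and 3.13, 3.11 and 2.25 CPM with WT (log2 0.99 ± 0.22, edgeR adjusted p = 0.000293). CFAP69, a protein of cilia and sperm flagella, rose by 1.01 ± 0.22 (edgeR adjusted p = 0.000268). The phospholipases C PLCB4 and PLCD1, which split a membrane lipid into second messengers, rose by 0.87 and 0.83 (edgeR adjusted p = 0.000447 and 0.00117), and STXBP5L, a regulator of vesicle release, rose by 0.88 (edgeR adjusted p = 0.000705). PVT1, a long non-coding RNA beside MYC, measured 15.3, 17.7 and 16.9 CPM against 9.02, 10.4 and 8.76 CPM (log2 0.83 ± 0.14, edgeR adjusted p = 9.82e-06). HSD17B7P2, a transcribed pseudogene of the sterol enzyme HSD17B7, rose by 0.83 (edgeR adjusted p = 0.00271), and reads that it shares with HSD17B7 are uncertain. A further 2 genes that met the size rule for rises bear locus symbols alone.

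The falls with the greatest size among the named genes were in a gene with a near-identical copy and in a read-through annotation, for which the division of reads is uncertain. MAGED4B was listed at 0, 0 and 3.06 CPM with N2V7 and at 8.67, 15.2 and 29.8 CPM with WT (log2 -4.02, edgeR adjusted p = 0.0243), and it lost its call without replicate 1 or 2 of N2V7_S13 or replicate 3 of WT_S13 (log2 between -3.52 and -3.41). Together with its near-identical neighbour MAGED4 it summed to 64.5, 68.7 and 75.9 CPM per library total against 83.2, 81.1 and 73.1 CPM. The sums overlap, which the values of MAGED4B alone did not. RPL36A-HNRNPH2, a read-through of neighbouring genes, measured 3.72, 0.763 and 2.25 CPM against 21.7, 13.7 and 20.5 CPM (log2 -3.02 ± 0.66, edgeR adjusted p = 0.000558). Of its partners, RPL36A ran between 1081 and 1129 CPM per library total with N2V7 and between 1073 and 1164 CPM with WT. HNRNPH2, the other partner, ran between 116 and 125 CPM per library total with N2V7 and between 135 and 148 CPM with WT. RPL36A thus overlapped between the groups, while HNRNPH2 was lower in all N2V7 libraries but short of the fold threshold (log2 -0.14, edgeR adjusted p = 0.0387). How reads were divided within the locus was not tested.

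Other large falls were seen in single genes. C1orf162, a gene of unclear role, measured 4.04, 3.24 and 3.22 CPM against 11.1, 9.66 and 11.9 CPM (log2 -1.63 ± 0.28, edgeR adjusted p = 1.28e-05). ZNF557, a zinc-finger gene (chromosome 19, 7069703 to 7087968), measured 5.01, 5.25 and 4.35 CPM against 11.6, 12.2 and 11.4 CPM (log2 -1.27 ± 0.18, edgeR adjusted p = 1.63e-07). The long non-coding RNA LINC01061 was 2.69-fold lower (edgeR adjusted p = 0.000163), and 13 further genes with locus symbols alone met the size rule for falls. For C1orf162, ZNF557 and LINC01061 the N2V7_S13 libraries all lay below the WT_S13 libraries, as the plot of the largest changes shows.

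**Figure D3:**
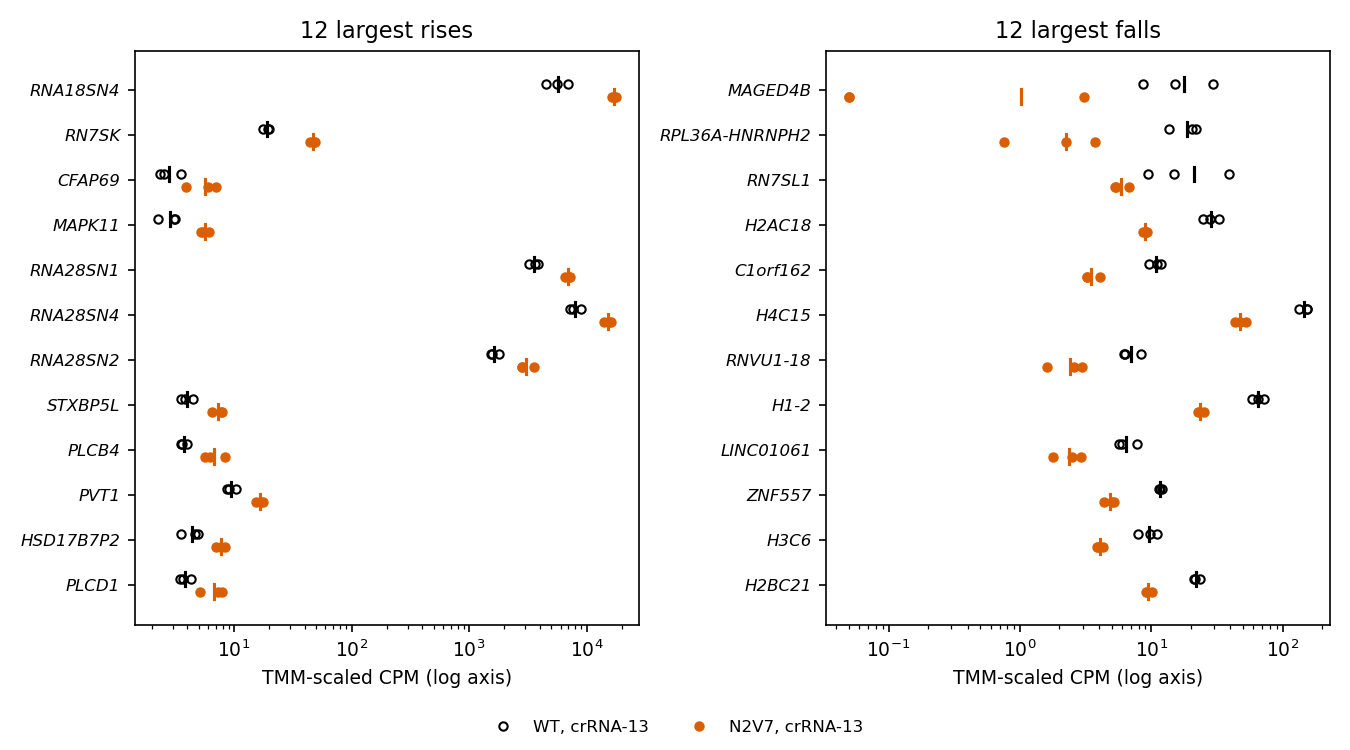
Levels in TMM-scaled CPM (horizontal log axes) of the 12 largest rises (left) and 12 largest falls (right) in the 3 WT libraries (open) and 3 N2V7 libraries (filled) with crRNA-13, with vertical marks at the means and values of 0 drawn at 0.05. In no gene shown do the groups overlap, which the choice of genes required, and the WT libraries of MAGED4B and RN7SL1 are the most spread, from 8.67 to 29.8 CPM and from 9.38 to 39.0 CPM.

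Nuclear speckles are bodies rich in splicing factors, and the CLK and SRPK kinases phosphorylate the SR proteins stored there. Of 28 tested genes of this list, 8 fell and 1 rose, where 6.38% and 2.5% of all tested genes did. The median difference of the list was -0.22, and the number that fell ran between 6 and 9 when single libraries were left out. SRRM1, a coactivator of splicing, measured 142, 139 and 155 CPM with N2V7 and 203, 242 and 228 CPM with WT (log2 -0.63 ± 0.11, edgeR adjusted p = 6.05e-05). The speckle scaffold SRRM2 measured 560, 518 and 552 CPM against 723, 848 and 768 CPM (log2 -0.52 ± 0.09, edgeR adjusted p = 4.25e-05). ACIN1, part of a complex on spliced mRNA, fell by 0.54 ± 0.06 (edgeR adjusted p = 1.78e-09). CLK1, a kinase of SR proteins, went the other way (log2 0.47, edgeR adjusted p = 0.00209) but lost its call without replicate 1 of N2V7_S13 (log2 0.33).

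With the non-targeting crRNA, 9 genes of the speckle list were higher with N2V7 and 0 were lower by edgeR, against 5.55% and 5.24% of all tested genes. The difference between effectors was lower with crRNA-13 than with NTG for 13 and higher for 1, against 8.06% and 5.9% of all tested genes. SRRM1 was 0.37 higher with N2V7 under NTG, a gap of -1.0 ± 0.16 between the crRNAs (edgeR adjusted p = 2.85e-05). The lists of core splicing factors and hnRNP proteins showed a like arrangement. With NTG, 10 of 48 and 6 of 31 were higher with N2V7, and 1 and 0 were lower. The gap between the crRNAs was lower for 14 and 12 of them, and higher for 0 and 1. With crRNA-13 itself few were called, 1 of 48 and 1 of 31 lower and 0 higher, where 6.38% of all tested genes were lower. These were TIA1, an RNA-binding protein of stress granules (log2 -0.36, edgeR adjusted p = 0.017), which lost its call without replicate 2 of N2V7_S13 (log2 -0.32) or of WT_S13 (log2 -0.31), and the hnRNP-like protein HNRNPUL2 (log2 -0.39, edgeR adjusted p = 0.000492), which lost it once the length trend was removed (log2 -0.32).

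Genes of DNA replication were called higher more often than tested genes as a whole. Of 51 replication and S phase genes, 5 rose and 1 fell, where 2.5% and 6.38% of all tested genes did. MCM5, a subunit of the replicative helicase, measured 116, 110 and 120 CPM against 76.5, 88.4 and 87.7 CPM (log2 0.46 ± 0.06, edgeR adjusted p = 6e-08), and CDC45, which joins that helicase, rose by 0.42 ± 0.06 (edgeR adjusted p = 5.4e-07). E2F1, a transcription factor of S phase entry, was higher by 0.35 (edgeR adjusted p = 0.00051), short of the fold threshold without replicate 1 of N2V7_S13 (log2 0.31). The member that fell was CLSPN, a checkpoint mediator with a long transcript (log2 -0.44 ± 0.08, edgeR adjusted p = 1.35e-05), whose call was lost with the length trend removed (log2 -0.31).

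Of 54 genes of mitosis and the kinetochore, 4 fell and 1 rose, shares near those of all tested genes (6.38% and 2.5%), with a list median of 0.02. CENPF, a kinetochore protein, measured 80.6, 71.0 and 71.2 CPM against 119, 152 and 142 CPM (log2 -0.89 ± 0.17, edgeR adjusted p = 0.000112), and CENPE, a kinetochore motor, fell by 0.70 ± 0.17 (edgeR adjusted p = 0.00177). MKI67, the proliferation antigen Ki-67, measured 89.4, 78.7 and 93.0 CPM against 141, 229 and 170 CPM (log2 -1.04 ± 0.32, edgeR adjusted p = 0.0126). Without replicate 2 of WT_S13, the highest of the WT libraries, MKI67 was lower by 0.84 on the log2 scale and no longer called (edgeR adjusted p = 0.0749). All 3 have long transcripts, of 10290 bases for CENPF, 8541 for CENPE and 12716 for MKI67. The calls of all 3 held with each library's length trend removed. CDC25C, the phosphatase that starts mitosis, was higher by 0.32 (edgeR adjusted p = 0.00136) and fell under the fold threshold without replicate 2 or 3 of N2V7_S13 (log2 0.31 and 0.32) or replicate 3 of WT_S13 (log2 0.23).

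Long transcripts as a whole were lower with N2V7. The 14451 tested genes with a GENCODE transcript were divided by the length of that transcript into 5 bins of like size, and genes called lower made up 3.32% of the shortest bin and 13.9% of the longest, while genes called higher made up 4.6% and 0.969%. The median difference over all genes of a bin went from 0.09 in the shortest to -0.11 in the longest. The median transcript was 5244 bases among genes called lower, 2178 bases among those called higher and 3277 bases among all, and the median GC content of genes called lower was 52.8% against 48.6% overall. With NTG the medians of the bins ran from 0.04 to -0.04. On the mean of S3, S4 and S7 the median was 0.02 in the shortest bin and -0.09 in the longest. Within single libraries, the slope of log2 level on log2 length, relative to the mean of all libraries, lay between -0.0768 and -0.0488 in N2V7_S13, between -0.0240 and 0.00144 in WT_S13, between 0.0209 and 0.0467 in N2V7_NTG and between 0.0528 and 0.0684 in WT_NTG. With each library's trend removed, 1110 genes were called in place of 1365, 760 lower and 350 higher, and genes called lower numbered 130 in the shortest bin and 185 in the longest where they had numbered 96 and 401. What set the length trend of a library was not tested.

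**Figure D4:**
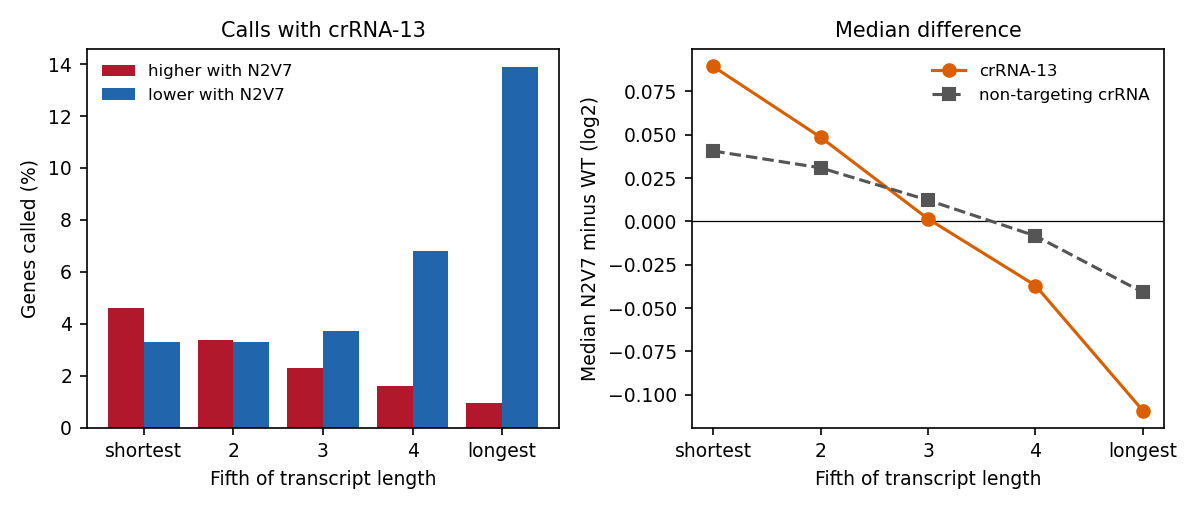
Share of tested genes called higher or lower with N2V7 under crRNA-13 (left, percent) and median log2 difference of N2V7 minus WT under crRNA-13 and NTG (right) by bin of transcript length (horizontal axes). The share called lower goes from 3.32% in the shortest bin to 13.9% in the longest, and the median under crRNA-13 from 0.09 to -0.11.

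The integrated stress response, in which phosphorylated eIF2 slows translation and lets ATF4 turn on amino acid and redox genes, differed between the effectors with NTG but hardly with crRNA-13. Of 47 tested targets, 1 was lower and 0 were higher with crRNA-13 by edgeR, against 34 lower and 0 higher with NTG. Of all tested genes, 6.38% were lower and 2.5% higher with crRNA-13, and 5.24% and 5.55% with NTG. The gap between the crRNAs was called toward higher values for 26 of the 47 and toward lower values for 0 (5.9% and 8.06% of all genes). Their summed level was between 7679 and 8560 CPM in N2V7_S13, between 7722 and 8543 CPM in WT_S13, between 6531 and 7574 CPM in N2V7_NTG and between 9687 and 9834 CPM in WT_NTG. Thus the groups with crRNA-13 overlapped, those with NTG did not, and the sums of the crRNA-13 libraries lay above those of N2V7_NTG and below those of WT_NTG.

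ATF5, a sister factor of ATF4, measured 18.5, 17.9 and 11.8 CPM with N2V7 and 14.6, 14.1 and 20.1 CPM with WT under crRNA-13, and 12, 12.5 and 14.1 CPM against 35.2, 34.2 and 45 CPM under NTG. Its difference was -0.02 with crRNA-13 and -1.57 with NTG, a gap of 1.55 (edgeR adjusted p = 0.0011). ASNS, asparagine synthetase, named after its values were seen, showed the same arrangement, with a difference of 0.20 (95% interval -0.04 to 0.43) under crRNA-13 and of -1.15 under NTG. The 1 target that was lower with crRNA-13 was ADM2, a peptide of the adrenomedullin family, at 20.7, 22.7 and 20.4 CPM against 37.3, 41.6 and 40.3 CPM (log2 -0.90 ± 0.13, edgeR adjusted p = 1.43e-06), and it was lower by 0.58 with NTG as well. INHBE, an activin subunit made under such stress, was the single called member of 35 genes of BMP, activin and TGF-beta signalling (log2 -0.66 ± 0.14, edgeR adjusted p = 0.000234). With NTG INHBE was lower by 0.88 (edgeR adjusted p = 3.19e-06), and its gap between the crRNAs was not called.

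The cytosolic aminoacyl-tRNA synthetases, which charge tRNAs and include ATF4 targets, gave 1 higher and 0 lower of 20 by edgeR with crRNA-13 against 0 higher and 9 lower with NTG. Beside these and the next lists, 2.5% of all tested genes were higher and 6.38% lower with crRNA-13, and 5.55% and 5.24% with NTG. The member that rose was CARS1, which charges tRNA with cysteine, at 125, 136 and 119 CPM against 82.8, 89.7 and 97.8 CPM (log2 0.49 ± 0.07, edgeR adjusted p = 7.04e-08). Of 37 genes that answer unfolded proteins in the endoplasmic reticulum, 2 were lower and 0 higher by edgeR with crRNA-13, against 10 lower and 0 higher with NTG. The 2 were the stress sensor ERN1 and the ubiquitin ligase SYVN1, both at -0.34 (edgeR adjusted p = 0.0296 and 0.00183). ERN1 lost its call without replicate 1 or 3 of N2V7_S13 or replicate 1 of WT_S13 (log2 between -0.33 and -0.26), and SYVN1 lost it without replicate 3 of N2V7_S13 (log2 -0.31). None of 26 cytosolic chaperones was called by edgeR, where 8 were higher with NTG. EIF2AK2, the eIF2 kinase PKR that responds to double-stranded RNA, was the 1 called of 19 stress kinases and sensors (log2 -0.38 ± 0.08, edgeR adjusted p = 0.000266), and not so with the length trend removed (log2 -0.24).

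Of 32 targets of p53, the factor that answers DNA damage and nucleolar stress, 5 rose and 0 fell by edgeR, with a median of -0.04 over the list. Of all tested genes, 2.5% rose and 6.38% fell. DDB2, a sensor of damaged DNA, measured 56.3, 70.7 and 66.6 CPM against 39.8, 42.3 and 34.7 CPM (log2 0.73 ± 0.10, edgeR adjusted p = 6.83e-08), and FDXR, a mitochondrial reductase, rose by 0.49 ± 0.12 (edgeR adjusted p = 0.000741). SPATA18, a factor of mitochondrial quality control, was higher by 0.40 (edgeR adjusted p = 0.00532) but not called without replicate 2 of WT_S13 (log2 0.30). The counts for the list ran from 3 to 5 higher and from 0 to 3 lower when single libraries were left out. With NTG, 8 of the 32 were higher with N2V7 and 2 lower, with a median of 0.17, where 5.55% and 5.24% of all tested genes were. The gap between the crRNAs was called higher for 5 and lower for 7 (5.9% and 8.06% of all tested genes). On the mean of S3, S4 and S7, 14 of the 32 were higher with N2V7, where 5.86% of all tested genes were. Of 25 BCL2 family and apoptosome genes 1 was called, BNIP3, a mitochondrial receptor for autophagy (log2 0.41, edgeR adjusted p = 0.0291), whose libraries overlapped, at 121, 158 and 172 CPM with N2V7 and 129, 119 and 90.3 CPM with WT. That call was lost without replicate 2 or 3 of N2V7_S13 or replicate 3 of WT_S13 (log2 between 0.28 and 0.38).

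Genes that build ribosomes gave 4 lower and 0 higher calls, and genes that form them gave 2 higher and 0 lower. The 4 of 57 lower and the 2 of 83 higher were near the shares of all tested genes, 6.38% lower and 2.5% higher. Of 57 genes of nucleolar ribosome biogenesis 4 fell, among them TCOF1, which promotes transcription of ribosomal DNA, at 121, 113 and 130 CPM against 171, 229 and 206 CPM (log2 -0.73 ± 0.15, edgeR adjusted p = 0.000356). UTP3, of the small-subunit processome, fell by 0.43 ± 0.08 (edgeR adjusted p = 1.05e-05) and GNL3L, a nucleolar GTPase, by 0.52 ± 0.11 (edgeR adjusted p = 0.00036). With NTG 16 of these genes were higher and 0 lower by edgeR, where 5.55% and 5.24% of all tested genes were. The gap between the crRNAs was negative for 21, where it was for 8.06% of all tested genes. Of 83 cytosolic ribosomal proteins 2 rose, RPL9 at 1662, 1764 and 1766 CPM against 1372, 1256 and 1225 CPM (log2 0.43 ± 0.05, edgeR adjusted p = 5.5e-09) and RPL41 (log2 0.39 ± 0.06, edgeR adjusted p = 3.25e-07). RPL41 has a short transcript of 676 bases and passed the fold threshold no more once the length trend was removed (log2 0.29). The medians of the lists were -0.02 for biogenesis and 0.10 for ribosomal proteins.

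Of 25 genes that host small nucleolar RNAs in their introns, 5 fell and 1 rose, where 6.38% and 2.5% of all tested genes did. The same shares stand beside the lists of RNA decay and tRNA processing that follow. SNHG3 fell by 0.45 ± 0.07 (edgeR adjusted p = 2.97e-06) and SNHG17 by 0.42 ± 0.11 (edgeR adjusted p = 0.00333). SNHG10 was lower by 0.69 (edgeR adjusted p = 0.00932), a call lost without replicate 1 of WT_S13 (log2 -0.56), and SNHG12 was higher by 0.36 (edgeR adjusted p = 0.042), a call lost without replicate 1 or 3 of N2V7_S13 or replicate 2 or 3 of WT_S13 (log2 between 0.26 and 0.35). Of 54 genes of RNA decay 4 rose and 3 fell. The exosome subunit EXOSC6 fell by 0.54 ± 0.08 (edgeR adjusted p = 4.18e-07), whereas the exosome subunit EXOSC5 and LSM2, of the ring that binds U6 and decaying mRNA, rose by 0.41 and 0.36 (edgeR adjusted p = 0.00222 and 3.71e-06). None of the 4 rises was called with the length trend removed, at which EXOSC5 measured 0.31 and LSM2 0.26. Of 69 genes of tRNA processing 4 rose and 1 fell. TRMT2A, a tRNA methyltransferase, rose by 0.41 ± 0.09 (edgeR adjusted p = 0.000459), TRIT1, which modifies a base beside the anticodon, rose by 0.35 ± 0.07 (edgeR adjusted p = 0.000107), and ADAT3, part of the tRNA adenosine deaminase, fell by 0.93 ± 0.21 (edgeR adjusted p = 0.000468).

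Immune and early response genes were close to the background (6.38% of all tested genes lower and 2.5% higher). Of 29 tested interferon-stimulated genes 2 rose and 1 fell, and all 3 depended on single libraries. IFI27 was at 1.05, 1.53 and 0.966 CPM with N2V7 against 0.782, 0.345 and 0.388 CPM with WT (log2 1.16, edgeR adjusted p = 0.0341) and lost its call without replicate 2 of N2V7_S13 or replicate 2 or 3 of WT_S13 (log2 between 0.95 and 1.00). HERC5, an ISG15 ligase (log2 0.36, edgeR adjusted p = 0.000739), lost it without replicate 3 of N2V7_S13 (log2 0.23), and DDX58, the RNA sensor RIG-I (log2 -0.73, edgeR adjusted p = 0.0136), lost it without replicate 1 of N2V7_S13 (log2 -0.64) or replicate 3 of WT_S13 (log2 -0.41). Of 43 immediate early genes 1 was called, ZFP36L1, a protein that speeds the decay of AU-rich mRNAs (log2 -0.45 ± 0.07, edgeR adjusted p = 8.2e-07). NFKBIB, an inhibitor of NF-kB, fell by 0.53 ± 0.12 (edgeR adjusted p = 0.000747), the only 1 of 3 called members among 19 NF-kB targets whose call held with each single library left out. PAX2, a kidney lineage factor kept by this line, measured 2.18, 4.29 and 5.55 CPM against 6.39, 7.42 and 7.52 CPM (log2 -0.83 ± 0.21, edgeR adjusted p = 0.0015) and was not called without replicate 1 of N2V7_S13 (log2 -0.52). GATA2, a blood lineage factor and the single called member of 8 tested markers of other lineages, was lower by 0.33 on the log2 scale (edgeR adjusted p = 0.000886), short of the fold threshold without replicate 1 or 3 of N2V7_S13 or replicate 3 of WT_S13 (log2 between -0.32 and -0.30).

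Genes of the mitochondrion and of sterol synthesis leaned upward by small amounts. With crRNA-13 the list medians were 0.14 for oxidative phosphorylation, 0.12 for mitochondrial ribosomal proteins and 0.11 for cholesterol synthesis. With NTG they were 0.10, 0.16 and -0.04, so the mitochondrial lists leaned upward there too. Of 76 nuclear genes of oxidative phosphorylation, 73 had a difference above 0, with a median of 0.14, where 7554 of 15378 tested genes did. The bin of shortest transcripts had a median of 0.09, and the part of transcript length in the lean was not tested. The 1 called member was the complex I subunit NDUFV2 (log2 0.33, edgeR adjusted p = 0.000152). NDUFV2 dropped under the fold threshold without replicate 2 of N2V7_S13 (log2 0.32) or replicate 3 of WT_S13 (log2 0.29) and with the length trend removed (log2 0.23). Of 78 mitochondrial ribosomal proteins 1 was called, MRPL23 (log2 0.33, edgeR adjusted p = 0.0156), and lost without replicate 3 of N2V7_S13 (log2 0.31) or of WT_S13 (log2 0.25) and with the length trend removed (log2 0.24). Of 27 genes of cholesterol synthesis 2 were higher, MVK, which phosphorylates mevalonate, and HSD17B7, both at 0.40 (edgeR adjusted p = 0.0141 and 0.00967). MVK lost its call without replicate 1 of N2V7_S13 (log2 0.36) or replicate 3 of WT_S13 (log2 0.30), and HSD17B7 without replicate 3 of N2V7_S13 or replicate 2 or 3 of WT_S13 (log2 between 0.33 and 0.34) or with the length trend removed (log2 0.32).

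**Figure D5:**
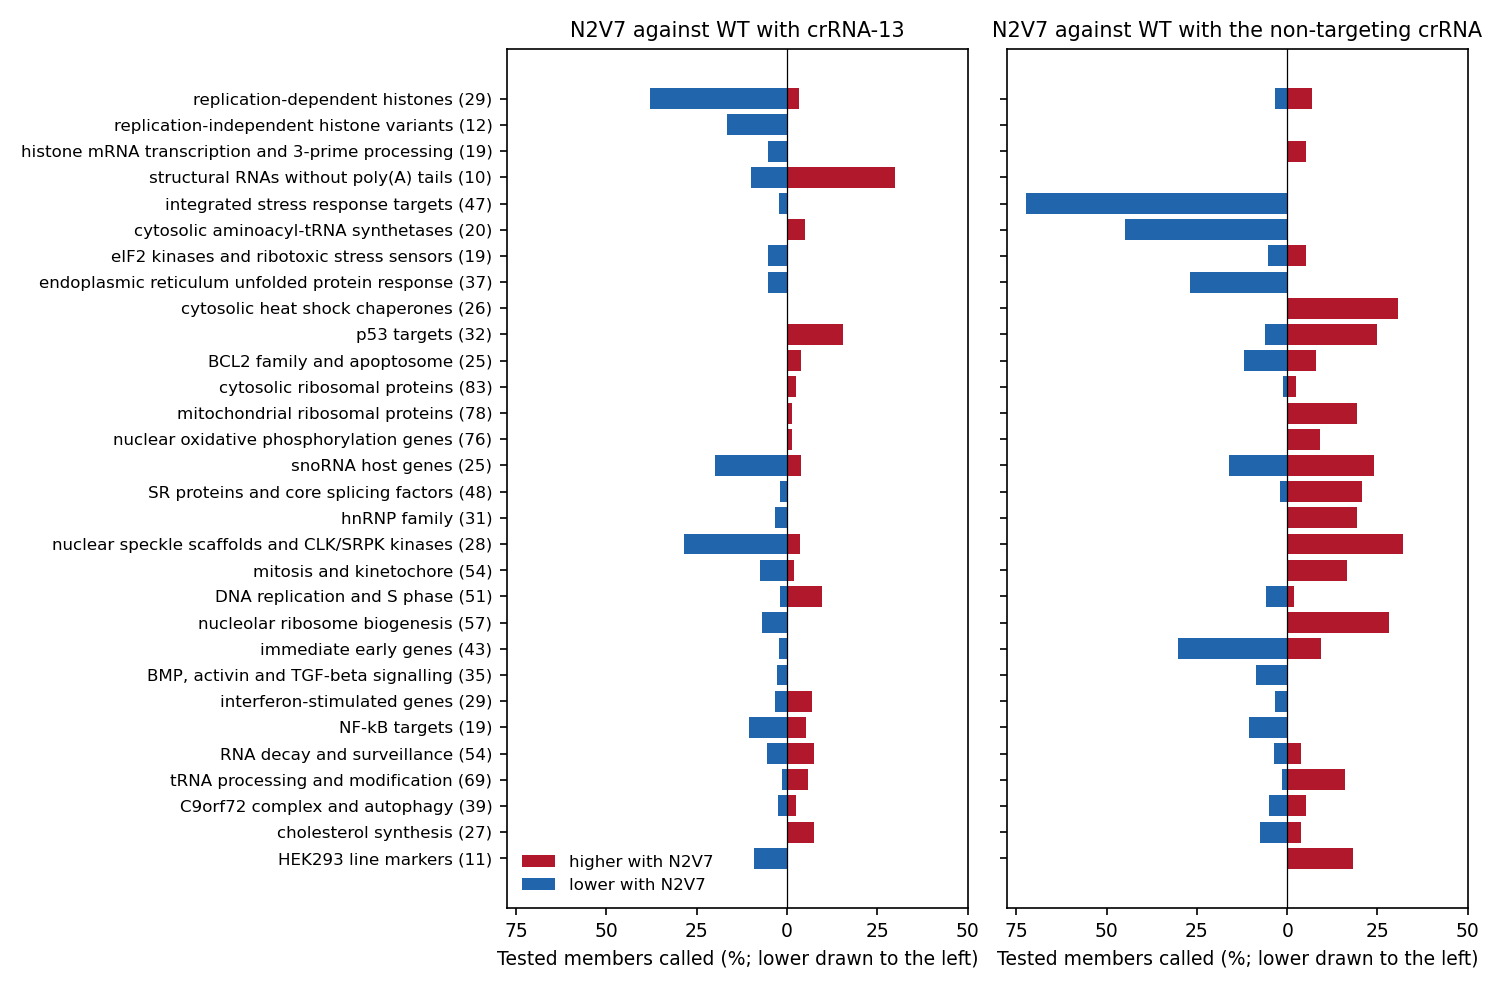
Share of the tested members of each gene list with at least 10 of them (number tested in brackets) that were called higher (right) or lower (left) with N2V7 against WT, in percent on the horizontal axes, with crRNA-13 (left panel) and with the non-targeting crRNA (right panel). With crRNA-13 the longest bar belongs to the histones (11 of 29 lower), with NTG to the targets of the integrated stress response (34 of 47 lower).

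The last question was how far the difference between N2V7 and WT depended on the crRNA. With NTG 1660 genes were called (10.8%), 854 higher and 806 lower, so that 48.6% of the called genes were lower where 71.9% were with crRNA-13. Of the 981 genes lower with crRNA-13, 59 (6.01%) were also lower with NTG, which is 7.32% of the NTG list, and 67 were higher. Of the 384 genes higher with crRNA-13, 42 (10.9%) were also higher with NTG, or 4.92% of that list, and 28 were lower. Among all tested genes, 5.24% were lower and 5.55% higher with NTG, against which the 6.01% and 10.9% are read, and 6.38% and 2.5% were lower and higher with crRNA-13, against which the 7.32% and 4.92% are read. With the mean of S3, S4 and S7, where 5.43% of all genes were lower and 5.86% higher, the shares called the same way were 25.1% of the lower and 22.1% of the higher genes. The gap between the differences was called for 2146 genes against NTG (14%) and for 1130 against the mean of S3, S4 and S7 (7.35%), with 437 genes higher (2.84%) and 693 lower (4.51%) in the latter. The 2146 and 1130 genes fell to 1272 and 566 with no factor of unwanted variation, whose weight lay at 95.6% in the N2V7_S4 libraries, and the 1130 to 237 with only the compared libraries in the fit. Against both references at once, 184 genes lower with crRNA-13 and 63 genes higher with it had gaps of the same sign.

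Gaps from NTG were found at all levels, from the abundant RNA18SN4 (2.0) and H4C15 (-2.12) to genes of a few CPM. Of the latter, CDHR4, a cadherin-related protein, measured 3.72, 5.25 and 4.11 CPM with N2V7 and 9.38, 11.6 and 7.36 CPM with WT under crRNA-13, but 4.35, 5.31 and 4.46 CPM and 0.485, 0.556 and 1.14 CPM under NTG, a gap of -3.76 (edgeR adjusted p = 2.5e-08). LSMEM1, a small membrane protein, had a gap of -2.25 (edgeR adjusted p = 4.1e-06) with a difference of -1.13 under crRNA-13 and 1.12 under NTG. In both genes the WT libraries with crRNA-13 were the highest group of the 4 and the WT libraries with NTG the lowest. CGA, the alpha subunit of glycoprotein hormones, had a gap of 2.03 (edgeR adjusted p = 9.1e-05) that came from a fall of 1.42 with NTG, while its difference of 0.61 with crRNA-13 was not called (edgeR adjusted p = 0.0724). Genes with similar values in both comparisons were found as well, among them CFAP69 (1.01 and 0.98) and PVT1 (0.83 and 0.83), with gaps of 0.03 (95% interval -0.64 to 0.71) and 0.00 (95% interval -0.56 to 0.56).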

How the data were processed

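Bulk RNA sequencing of poly(A)-selected, stranded libraries from 1 NovaSeq lane gave 54 libraries in 18 groups. The authors quantified reads with Salmon 1.5.2 against spliced NCBI transcripts with GRCh38 as decoy and deposited estimated counts per gene (tximport, scaled by length), with another column that marks 15464 genes they kept. These counts were rounded. Of 38137 genes, 15378 passed edgeR's filterByExpr; the rest held 0.0722% of the counts. Each group had 3 libraries, described by the study as independent replicates, with 10674350 to 13951684 counts in the 6 compared.

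Counts were fitted in edgeR 4.0.16 (R 4.3.3) with TMM scaling, a robust quasi-likelihood F test, the 18 groups and 1 factor of unwanted variation taken from residuals (RUVr, own implementation), leaving 35 residual degrees of freedom. N2V7_S4 libraries held 95.6% of that factor's weight. Genes were called at a fold over 1.25 and a Benjamini-Hochberg adjusted p under 0.05, adjusted jointly over the comparisons with crRNA-13, NTG and the mean of S3, S4 and S7, and jointly over both differences of differences. On simulated data for 15114 genes, 94.0% of 67 genes changed 2-fold and 67.2% of 67 changed 1.5-fold were found, with 3 false calls among 14914. The changed genes were drawn from those above a minimum mean level. The simulated libraries held no length trend and no shift shared by the genes of a library. The 3 false calls thus do not give their number in the real libraries.

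Genes were named by rule: C9orf72, the 12 largest called rises and falls whose mean over the 6 libraries reached 2 on the log2 CPM scale and whose groups did not overlap, up to 3 called members per list and direction, and the 5 largest differences from NTG in each direction. Not all were described, and 1 is not reported here. The comparison and the 32 gene lists were chosen with earlier results of these data known. Alternatives were no factor, limma-trend (limma 3.58.1), DESeq2 1.42.0, its size factors, no low-count filter, the authors' filter, a replicate block, separate adjustment, a stricter adjusted p of 0.01, a fit of the compared libraries alone, removal of each library's length trend, and each library left out in turn. Replicate numbers did not pair the libraries, so the block was kept out of the reported values. Stem-loops were searched in GENCODE transcripts (GRCh38) with Python 3.11.15.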

Additional observations from a re-analysis of the deposited data

Results flagged for a closer look

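For 55 of the 95 named genes, the difference between N2V7 and WT with crRNA-13 itself differed from the difference with NTG in edgeR's quasi-likelihood test of the difference of differences (largest adjusted p = 0.0451). All values here are that gap on the log2 scale. The named genes include some chosen for a large gap, so their number is a description.

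The gap was positive for 21 genes. Among RNAs without poly(A) tails it was 2.0 for RNA18SN4, 1.63 for RN7SK and 0.94 for RNA28SN4. Among genes of signalling, stress and translation it was 1.08 for MAPK11, 1.06 for PLCD1, 0.72 for CARS1, 0.72 for RELB, 0.54 for DDB2, 0.51 for RPL9 and 0.48 for RPL41. Among genes of the cell cycle it was 0.44 for MCM5, 0.42 for E2F1, 0.40 for CDC25C and 0.36 for CDC45. Among genes of RNA processing and autophagy it was 0.65 for EXOSC1, 0.57 for TRMT2A, 0.56 for LSM2 and 0.33 for ATG3. Genes named for the gap were CGA (2.03), CRYAB (1.76) and ATF5 (1.55), of which CRYAB lost its call without replicate 1 of N2V7_S13 (1.61) and without any of 5 other single libraries.

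The gap was negative for 34 genes. Among the histones it was -2.12 for H4C15, -1.87 for H3C6, -1.70 for H2AC18, -1.05 for H2BC21 and -0.73 for H1-2. Among splicing, speckle and hnRNP genes it was -1.0 for SRRM1, -0.90 for ACIN1, -0.85 for TIA1, -0.45 for SRRM2 and -0.35 for HNRNPUL2. Among genes of mitosis, replication and the nucleolus it was -1.09 for CENPF, -1.03 for CENPE, -0.82 for TCOF1, -0.79 for GNL3L, -0.74 for UTP3 and -0.45 for CLSPN. Among snoRNA hosts it was -1.54 for SNHG10, -0.74 for SNHG3 and -0.71 for SNHG12.

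Among genes of RNA decay, tRNA and signalling it was -1.76 for ADAT3, -0.61 for NFKBIB, -0.45 for CNOT3, -0.43 for EXOSC6, -0.35 for SMG9, -0.34 for EIF2AK2 and -0.32 for ZFP36L1. Among lineage genes it was -1.49 for PAX2 and -0.58 for GATA2. The remaining values were -3.76 for CDHR4, -3.26 for RPL36A-HNRNPH2, -2.25 for LSMEM1, -2.23 for C1orf162, -1.53 for LINC01061 and -1.50 for ZNF557. RPL36A-HNRNPH2 lost its call in limma-trend (-3.12) and without any of 5 single libraries, the lowest size being -2.88.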

How the results depend on the processing

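The number of genes called between N2V7 and WT with crRNA-13 was 1365, and it ran from 924 at an adjusted p under 0.01 to 1443 with no low-count filter, with 68.5% to 73.2% of calls lower. C9orf72 was not called under any alternative run (edgeR, limma or DESeq2 adjusted p between 0.113 and 0.245). The difference from NTG fell from 2146 genes to 1272 with no factor of unwanted variation and to 1338 at an adjusted p under 0.01. The difference from the mean of S3, S4 and S7 fell from 1130 to 566, 687 and 237 genes with no factor, at an adjusted p under 0.01 and with only the compared libraries; 77.0% and 80.2% of calls were lower with no factor and with only the compared libraries, against 61.3%. For the mean of S3, S4 and S7 itself, 40.4% were lower with no factor against 48.1%.

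With single libraries left out, counts ran from 1172 to 1467 (crRNA-13), 1354 to 1715 (NTG), 1490 to 2204 (mean of S3, S4 and S7), 1802 to 2186 (difference from NTG) and 762 to 1591 (difference from that mean), and C9orf72 from 0.14 to 0.20. Of 90 named genes called with crRNA-13, 54 kept the call under each left-out library, 22 lost it with the length trend removed, and 0 reversed.

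Same-numbered replicates did not deviate together (correlations 0.00814, -0.0214 and -0.00856 between N2V7_S13 and WT_S13). With the replicate number as a block, 1367 genes were called with crRNA-13, 1664 with NTG, 1725 with the mean of S3, S4 and S7, 2161 and 1128 for the differences, and C9orf72 stood at 0.18.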
